A study of Homo sapiens with 4 samples.

Results

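The endoplasmic reticulum folding and degradation genes examined here are 36 genes listed by function. No measured value was a criterion, but the list was chosen with earlier results of these data known. Of these, 34 had a probe set with a symbol on the arrays, out of 17687 named genes and 21448 probe sets tested, and HSP90B1 and PDIA5 were not analysed here. Expression was measured on Affymetrix whole-transcript arrays in SK-N-AS, an established human neuroblastoma cell line. Cells received BG-P400-TAT at 30 µM or phosphate-buffered saline for 48 h, and each group has 2 arrays; the saline group is called untreated. The series title presents BG-P400-TAT as an agent against the norepinephrine transporter and the thyroid hormone-binding integrin αvβ3. The design text calls the arrays of a group biological replicates without saying how the cultures were kept apart, and p-values cover only the spread between arrays, which may be partly technical. Array values are log2 expression, on which a difference of 1 is a doubling.

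Proteins that are secreted or sit in membranes enter the endoplasmic reticulum through the Sec61 channel and fold there with chaperones and enzymes that form disulfide bonds. Those that fail to fold are carried back to the cytosol and degraded, a route called ER-associated degradation. When unfolded proteins build up, 3 sensors, encoded by ERN1, ATF6 and EIF2AK3, start the unfolded protein response, in which the transcription factors XBP1 and cleaved ATF6 raise the genes of chaperones and of degradation. The sensors act through cleavage, phosphorylation and splicing of XBP1 transcripts, which an array value for a whole gene does not read. Transcript levels of their target genes are therefore the nearest view of the response in these data.

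Promoters of these genes were searched for DNA elements known from the unfolded protein response. A match shows the letters only, and whether the gene answers to a sensor was not tested. The endoplasmic reticulum stress element, ERSE, is CCAAT and CCACG with 9 bases of any kind between them, and the shorter ERSE-II is ATTGG and CCACG with 1 base between. Both strands of RefSeq promoter windows of GRCh38.p14, from 250 bases before to 50 after a start site, were searched for exact matches. Windows were found for 33 of the 36 genes, 40 windows in all, and none was listed for PDIA3, DERL1 and DERL3. ERSE was found for 8 of the 33 genes (24.2%), namely HSPA5, HSP90B1, CALR, CANX, CRELD2, PDIA6, ERO1B and XBP1. Over all 27305 genes with a window, 25 (0.0916%) held it. ERSE-II was found for HYOU1, HERPUD1 and SDF2L1, 3 of 33 genes (9.09%), against 19 of all 27305 genes (0.0696%). By windows, 27 of 35116 (0.0769%) held ERSE and 19 (0.0541%) held ERSE-II. Chaperone and degradation genes are the known targets of these elements, so this sharing describes the list and not the treatment. Another element, UPRE, searched as TGACGTGG, was found for DNAJC10 and HYOU1, 2 of 33 genes (6.06%), and for 253 of all 27305 genes (0.927%). Of the further pathway genes taken up below, 80 had a window. UPRE was found for 8 of these 80 (10%), a larger share than in the list, ERSE for 1 (1.25%) and ERSE-II for 0. In HYOU1 the UPRE match overlaps an ERSE-II match, since both hold CCACG or its complement.

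The 250 bases before the start site are shown for HSPA5, XBP1 and HYOU1, a chaperone, a transcription factor and a chaperone with a pair of elements. Capitals mark the element. The middle of the element lies 57 bases before the start in HSPA5, 43 bases before it in XBP1, and 74 and 180 bases before it in HYOU1, where both matches are on the opposite strand and so read as the complement.
HSPA5, chr9:125241344-125241593, minus strand: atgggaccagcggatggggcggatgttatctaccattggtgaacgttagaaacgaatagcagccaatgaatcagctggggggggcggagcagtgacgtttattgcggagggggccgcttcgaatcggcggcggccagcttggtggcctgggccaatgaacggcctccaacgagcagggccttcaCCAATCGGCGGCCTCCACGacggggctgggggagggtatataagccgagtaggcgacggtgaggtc
XBP1, chr22:28800570-28800819, minus strand: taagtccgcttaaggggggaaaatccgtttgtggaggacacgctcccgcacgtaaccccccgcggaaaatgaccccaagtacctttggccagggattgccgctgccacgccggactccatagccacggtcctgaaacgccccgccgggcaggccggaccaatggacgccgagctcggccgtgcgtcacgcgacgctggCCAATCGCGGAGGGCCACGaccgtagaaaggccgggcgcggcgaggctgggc
HYOU1, chr11:119057206-119057455, minus strand: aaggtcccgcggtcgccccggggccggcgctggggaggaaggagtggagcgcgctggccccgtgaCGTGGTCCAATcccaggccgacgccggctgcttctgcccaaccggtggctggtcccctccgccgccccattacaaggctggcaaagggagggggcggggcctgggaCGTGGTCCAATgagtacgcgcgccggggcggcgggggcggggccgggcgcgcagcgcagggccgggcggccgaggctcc

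Matches in 6 other measured genes are shown with up to 10 bases on each side, on the strand on which the element reads forward. The search required the fixed letters, so only the bases between them and the flanks can differ.
CALR ERSE, chr19:12938374-12938412, minus strand: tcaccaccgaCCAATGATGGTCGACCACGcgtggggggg
CRELD2 ERSE, chr22:49918544-49918582, minus strand: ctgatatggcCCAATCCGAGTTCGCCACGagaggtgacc
PDIA6 ERSE, chr2:10812843-10812881, minus strand: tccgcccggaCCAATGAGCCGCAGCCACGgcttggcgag
ERO1B ERSE, chr1:236282173-236282208, plus strand: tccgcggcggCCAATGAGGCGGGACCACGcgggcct
HERPUD1 ERSE-II, chr16:56932015-56932045, plus strand: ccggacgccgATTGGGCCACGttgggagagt
SDF2L1 ERSE-II, chr22:21642104-21642134, minus strand: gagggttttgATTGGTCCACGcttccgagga

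Of the listed markers of the cell line, 4 of 6 measured adrenergic neuroblast genes lay above background on all arrays (PHOX2A, HAND2, GATA3 and ISL1), and TH and DBH on none; 6 of 7 mesenchymal neuroblastoma genes did. Among the leukocyte markers CD3E and CD14 were above background on no array, but the PTPRC probe set stood at 12.75, 12.80, 12.71 and 12.57 and CD68 at 10.58, 10.73, 10.73 and 10.78 on untreated replicates 1 and 2 and treated replicates 1 and 2. The leukocyte list averaged 8.74 and 9.09 in untreated and 8.67 and 8.76 in treated cells, and its part in the results was not tested. Whether the PTPRC probe set reads that gene alone could not be checked, so its level and the list's average are not read as a measure of leukocyte RNA. Of 5 epithelial markers, KRT8 and KRT18 were above background on all arrays and EPCAM, CDH1 and KRT19 on none. Background is each array's 95th percentile of negative-control probe sets, 7.19 to 7.64; for a gene's mean over the 4 arrays it is the same percentile of the controls' means, 6.96, lower because averaging narrows their spread. The array of untreated replicate 2 was the most distant, with median absolute log2 differences of 0.237 to 0.244 to the others, where the other pairs differed by 0.193 to 0.208. That array also had the highest background, 7.64, and the fewest probe sets above it, 8808, where the other arrays had 9413 to 9657. Among the 34 measured genes it held the lowest value for 15 and the highest for 4. Its median deviation from each gene's mean over the arrays was -0.043 for these 34. Over the 8722 named genes whose mean lay above background it was -0.049, so the low values are not particular to the list. Differences are therefore also given without that array, or without another, where this turns them or moves them by over 1.5 times. The ranges over all 4 such omissions are in the closing section.

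Nearly all of the machinery was detected in these cells. Of the 34 measured genes, 29 lay above background on all 4 arrays, 4 on some arrays (SDF2L1, MANF, ERO1B and ERN1) and DERL3 on none. Mean levels over the arrays ran from 7.44 to 16.81 among chaperones and cofactors, 7.65 to 14.63 among disulfide bond enzymes, 11.23 to 12.39 in the translocon, 7.13 to 11.93 among the sensing genes, and 4.17 to 13.81 among degradation genes. Probe sets differ in how brightly they bind, so these ranges place genes on the array's scale and do not rank their transcripts.

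**Figure D1:**
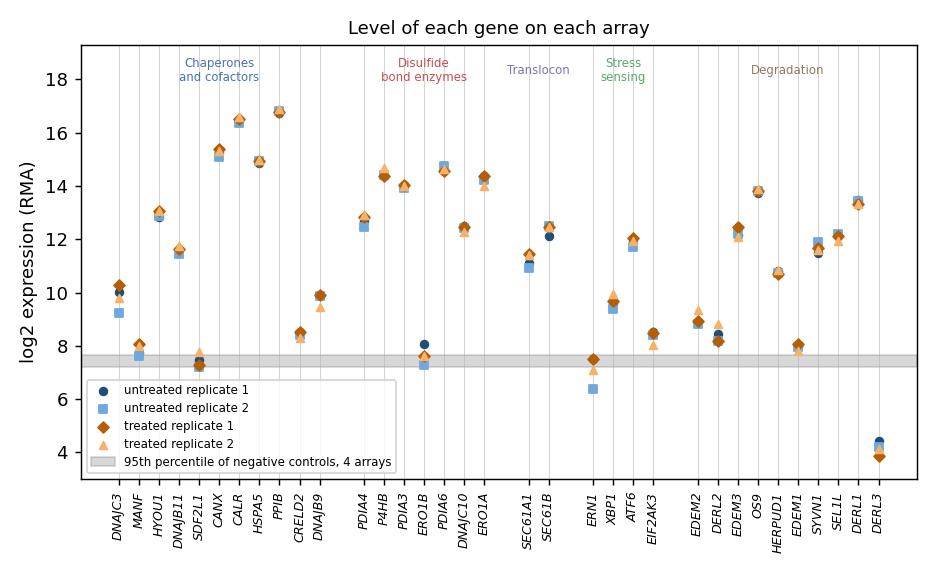
The y axis is log2 expression and each column is 1 gene, with 1 point per array (2 untreated, 2 treated) and the genes in 5 roles; the grey band spans the 4 arrays' 95th percentiles of negative controls, 7.19 to 7.64. The 4 points of a gene nearly coincide beside the spread between genes, and DERL3 lies below the band on every array.

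No gene of the list passed the test of treated against untreated cells. By limma with Benjamini-Hochberg adjustment over all 21448 probe sets, 0 of the 34 genes passed an adjusted p of 0.05, and 0 of all probe sets did (percent called 0); the smallest adjusted p among the 34 was 0.948. An unadjusted p under 0.05 was likewise found for 0 of the 34, beside 1089 of all probe sets (5.08%) and 209 of the 8722 named genes whose mean lay above the background for means, 6.96 (2.4%). All 34 confidence intervals (95%, from the same fit) included 0, and 32 of them lay within 2-fold in both directions. An exact permutation test of 1 gene over these 4 arrays has a smallest possible two-sided p of 0.333.

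As a description, differences were on balance slightly above 0, as they were over other detected genes. Of the 34, 21 (61.8%) were higher in treated cells and 13 lower, against 5129 of the 8722 named genes above background (58.8%) and 49.1% of all probe sets. Their median difference was 0.075 on the log2 scale, against 0.040 over those 8722 genes and -0.00068 over all 17687 named genes. Without DERL3, for which no difference is read because it is below background, 21 of 33 were higher and the median was 0.080. The median of the 34 was 0.049 without untreated replicate 2. Between single arrays, treated replicate 1 was above untreated replicate 1 for 24 of the 34 genes (70.6%) and treated replicate 2 for 19 (55.9%); over the 8722 genes those shares were 53.8% and 49.8%. Against untreated replicate 2 the counts were 24 (70.6%) and 21 (61.8%), beside 63.0% and 58.4% of the 8722 genes. The middle 90% of the 8722 genes, from the 5th to the 95th percentile, spanned differences of -0.28 to 0.39, and 31 of the 33 genes lay inside it; the 2 above it were DNAJC3 and SEC61A1. Groups that do not overlap, with both treated arrays above both untreated ones, were seen for 10 of the 34 (29.4%). Over all probe sets that share was 16.4%, and over the 8722 genes 21.2%. Both treated arrays lay below for 3 of the 34 (8.82%), beside 16.8% and 11.4%. The 3 include DERL3, and without it 10 of 33 (30.3%) lay above and 2 (6.06%) below.

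**Figure D2:**
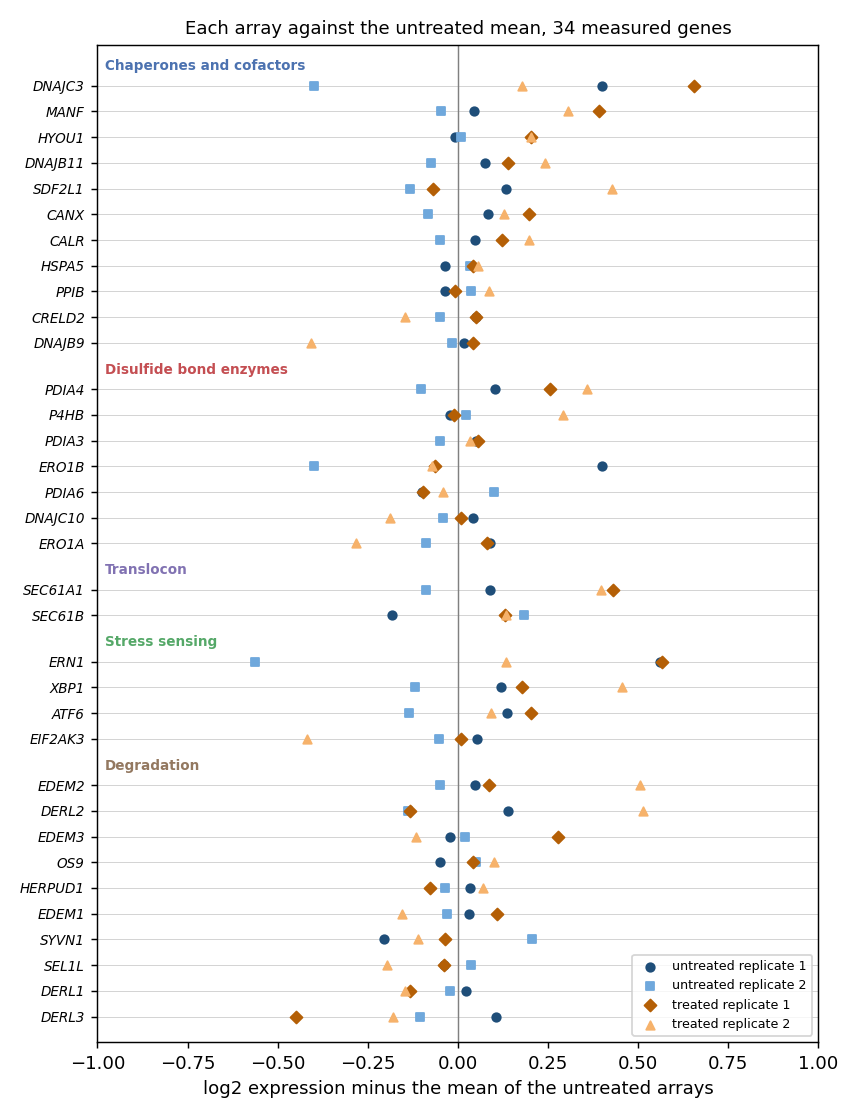
The x axis is log2 expression minus the mean of the 2 untreated arrays, each row is 1 of the 34 measured genes, sorted within its role, and each marker is 1 array. Both treated markers lie right of both untreated ones for 10 genes, among them HYOU1, CALR, CANX and SEC61A1, and untreated replicate 2 is the leftmost marker for 15 genes.

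Chaperones and their cofactors held 6 of the 10 genes whose treated arrays both lay above the untreated ones. HSPA5 encodes BiP, the main chaperone of the endoplasmic reticulum, which also holds the sensors inactive. It stood at 14.88 and 14.95 in untreated and at 14.95 and 14.97 in treated cells. The groups did not overlap but nearly touched, and the difference was 0.049 (interval -0.38 to 0.48), 1.03-fold, and 0.014 without untreated replicate 1. HYOU1, a large chaperone that exchanges nucleotide on BiP, read 12.84 and 12.86 in untreated and 13.05 and 13.05 in treated cells. The treated arrays of HYOU1 agreed closely and lay above both untreated ones, a difference of 0.20 (interval -0.22 to 0.63; limma adjusted p = 0.963). The standard error of 0.18 is far wider than the gaps of HYOU1 itself, because limma pools each gene's variance, on 2 residual degrees of freedom, with that of all probe sets, on 4.90.

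MANF, a secreted cofactor of BiP, stood at 7.72 and 7.63 in untreated and 8.07 and 7.98 in treated cells, close to background, and was not above it on untreated replicate 2. The difference of MANF was 0.35 ± 0.18 (SE; interval -0.08 to 0.78), the groups did not overlap, and the limma adjusted p was 0.948. HYOU1, MANF and the lectin chaperone genes were given array by array after their values were seen. CALR, which encodes calreticulin, a lectin chaperone of the lumen, read 16.45 and 16.35 in untreated and 16.53 and 16.60 in treated cells. CANX, calnexin, the membrane-bound lectin chaperone, read 15.26 and 15.09 against 15.37 and 15.30. Both differed by 0.16, both without overlap and both with intervals that spanned 0 (-0.27 to 0.59 and -0.28 to 0.60). Without untreated replicate 2 the difference of CANX was 0.079, and with an array left out that of CALR ran from 0.11 to 0.21.

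The J-domain co-chaperones, which hand substrates to BiP, had differences of both signs. DNAJC3 had the highest difference of the list, 0.42 (interval -0.32 to 1.15), from 10.03 and 9.23 in untreated and 10.28 and 9.81 in treated cells. Its groups overlapped, and the gap between its untreated arrays, 0.80, was larger than the difference, which was 0.016 without untreated replicate 2. DNAJB9 had the lowest difference among the chaperones, -0.18 (interval -0.70 to 0.33), from 9.89 and 9.86 in untreated and 9.91 and 9.46 in treated cells. That value rests on treated replicate 2, and without it the difference was 0.042. DNAJB11 differed by 0.19, without overlap, and by 0.12 without untreated replicate 2. Of the others, SDF2L1, which keeps substrates soluble with DNAJB11, differed by 0.18, PPIB, a prolyl isomerase, by 0.040 and CRELD2, a secreted stress-response protein, by -0.049. Without treated replicate 2 these 3 differences turned, to -0.069, -0.0069 and 0.049. In all, 9 of the 11 chaperones and cofactors were higher in treated cells, 6 without overlap, with a median of 0.16, and the median was 0.079 without untreated replicate 2. Over the 8722 detected genes 58.8% were higher and 21.2% higher without overlap, and over all probe sets 49.1% and 16.4%.

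Disulfide bond enzymes had differences on both sides of 0. PDIA4, a protein disulfide isomerase, had the highest difference of the group, from 12.67 and 12.47 in untreated to 12.82 and 12.92 in treated cells. Its groups did not overlap, and the difference was 0.31 (interval -0.14 to 0.76), or 0.20 without untreated replicate 2. ERO1A, the oxidase that recharges the isomerases, had the lowest, -0.10 (interval -0.60 to 0.40), from 14.38 and 14.21 in untreated and 14.37 and 14.01 in treated cells, and 0.079 without treated replicate 2. The related oxidase ERO1B differed by -0.068, with untreated arrays at 8.08 and 7.28 on either side of treated ones at 7.62 and 7.61. The gap between the untreated arrays of ERO1B was thus larger than its difference, which became 0.33 without untreated replicate 1. The isomerases P4HB, PDIA3 and PDIA6 differed by 0.14, 0.045 and -0.070, and DNAJC10, a reductase that opens disulfides for degradation, by -0.09. Without untreated replicate 2 PDIA3 turned to -0.0060 and PDIA6 to 0.029, and without treated replicate 2 P4HB turned to -0.0096 and DNAJC10 to 0.0076. Of the 7 genes 3 were higher and 4 lower, with a median of -0.068. That median turned to 0.096 without untreated replicate 1 and 0.0076 without treated replicate 2.

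The translocon gave the smallest p of the list. SEC61A1 encodes the pore of the Sec61 channel, and read 11.11 and 10.94 in untreated and 11.45 and 11.42 in treated cells. Both treated arrays were above both untreated ones, and the difference exceeded the gap within either group. It was 0.41 ± 0.19 (SE), 1.33-fold, with an interval of -0.03 to 0.85, and 0.32 to 0.50 with an array left out. The unadjusted limma p of SEC61A1 was 0.0625 and the adjusted p 0.948, so it did not pass. SEC61B, a small subunit of the same channel, read 12.14 and 12.50 in untreated and 12.45 and 12.45 in treated cells. The treated arrays of SEC61B fell between the untreated ones, and its difference of 0.13 (interval -0.35 to 0.62) was -0.052 without untreated replicate 1.

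Sensor genes were uneven. ERN1, which encodes IRE1α, the sensor that splices XBP1 transcripts, read 7.51 and 6.39 in untreated and 7.52 and 7.08 in treated cells and was above background on 2 of the 4 arrays. Untreated replicate 2 was the lowest array, and the difference of 0.35 (interval -0.53 to 1.23) became -0.21 without it. ATF6, the sensor that is cleaved into a transcription factor, read 12.00 and 11.72 in untreated and 12.06 and 11.95 in treated cells, with overlap and a difference of 0.15 (interval -0.32 to 0.61). Without untreated replicate 2 the difference of ATF6 was 0.011, and without untreated replicate 1 it was 0.28. EIF2AK3, which encodes PERK, the kinase that slows translation, read 8.51 and 8.41 in untreated and 8.47 and 8.04 in treated cells. Its difference of -0.20 (interval -0.72 to 0.31) was 0.0092 without treated replicate 2. XBP1, the transcription factor downstream of IRE1α, read 9.62 and 9.39 in untreated and 9.69 and 9.96 in treated cells. The groups of XBP1 did not overlap, and its difference was 0.32 (interval -0.17 to 0.80; limma adjusted p = 0.949). It fell to 0.18 without treated replicate 2 and 0.20 without untreated replicate 2. The median of the 4 genes was 0.23, and -0.10 without untreated replicate 2.

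Degradation genes were balanced between the directions. HERPUD1, a membrane protein that organizes the degradation complex and a strong target of the unfolded protein response, read 10.80 and 10.73 in untreated and 10.69 and 10.83 in treated cells. The treated arrays enclosed the untreated ones, and the difference was -0.0029 (interval -0.44 to 0.43), with -0.076 to 0.070 when an array was left out. SYVN1, the ubiquitin ligase HRD1, differed by -0.07 and its partner SEL1L by -0.12. SEL1L read 12.10 and 12.18 in untreated and 12.10 and 11.94 in treated cells, where untreated replicate 1 and treated replicate 1 were almost equal, and its difference was -0.038 without treated replicate 2 and -0.20 without treated replicate 1. DERL1, a channel-forming derlin, read 13.48 and 13.43 in untreated and 13.32 and 13.31 in treated cells. Groups of DERL1 did not overlap and the gaps within them were small, but its difference of -0.14 had an interval of -0.57 to 0.29. DERL3, a derlin known mainly from secretory tissues, was at 4.43 and 4.22 in untreated and 3.88 and 4.15 in treated cells, below background throughout, so no difference is read from it.

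The mannose-trimming proteins, which mark misfolded glycoproteins for disposal, had differences of both signs. EDEM2 had the highest difference among the degradation genes, 0.30 (interval -0.21 to 0.80), from 8.90 and 8.81 in untreated and 8.94 and 9.36 in treated cells. Most of it lay on treated replicate 2, and without that array it was 0.087. EDEM3 differed by 0.080 and EDEM1 by -0.024, DERL2 by 0.19, and OS9, a lectin that reads the trimmed glycans, by 0.070. OS9 differed by 0.020 without untreated replicate 1. The sign of DERL2 turned without treated replicate 2 (-0.13), that of SYVN1 without untreated replicate 2 (0.13), that of EDEM3 without treated replicate 1 (-0.12) and that of EDEM1 without treated replicate 2 (0.11) or untreated replicate 1 (0.0063). Among the 10 degradation genes 4 were higher and 6 lower, with a median of -0.014, and among the 9 above background 4 were higher and 5 lower, with a median of -0.0029. The median of the 10 became 0.013 without untreated replicate 1 and 0.0066 without untreated replicate 2. It was -0.11 without treated replicate 1 and -0.038 without treated replicate 2.

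**Figure D3:**
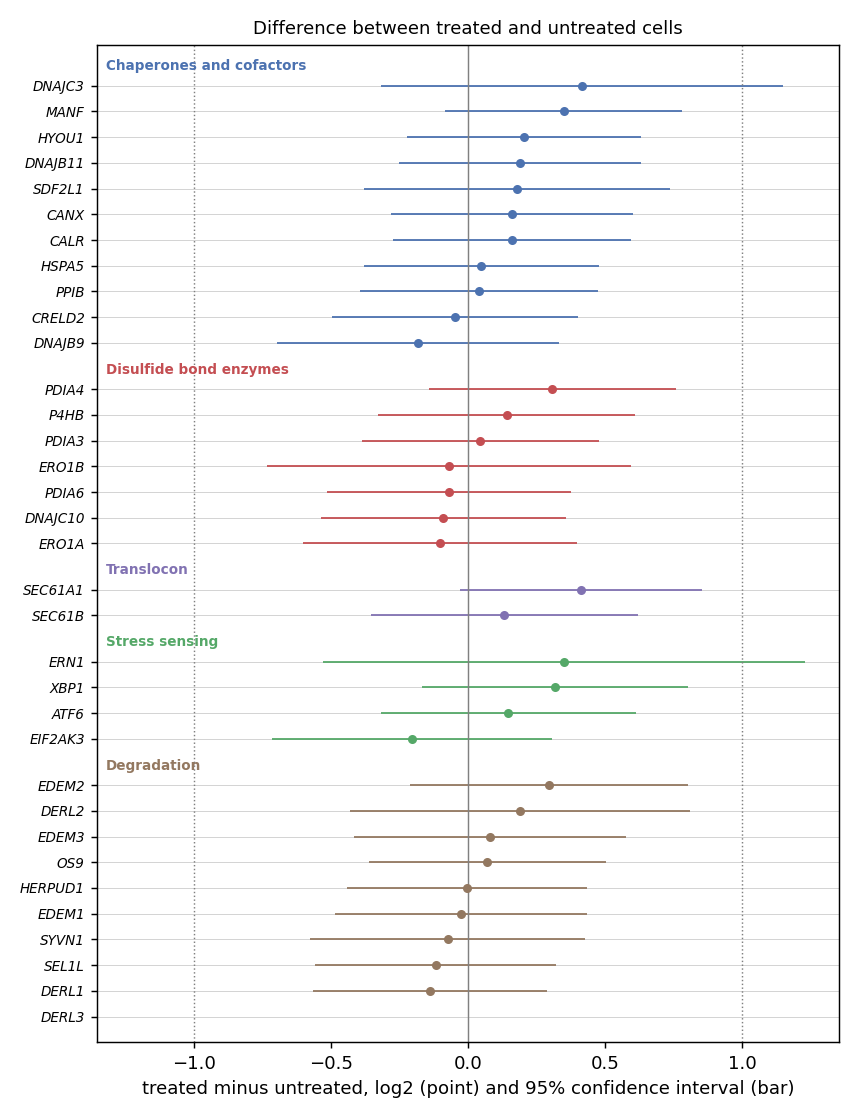
Points are treated minus untreated log2 differences with 95% confidence intervals from limma (2 arrays per group), by role; dotted lines mark 2-fold, and DERL3 has no point because it is below background. Every interval crosses 0, and those of DNAJC3 and ERN1 reach beyond 2-fold.

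Genes with and without ERSE or ERSE-II covered overlapping ranges of differences. The 7 measured genes with ERSE had a median difference of 0.049 and a range of -0.07 to 0.32, with 4 higher and 3 lower. The 3 with ERSE-II had a median of 0.18, and HERPUD1, the lowest of them, sat at -0.0029. The 21 genes with neither element had a median of 0.13 and a range of -0.20 to 0.42, with 14 higher and 7 lower. UPRE was not used in this grouping, and DNAJC10, which holds a UPRE match, is among the 21. Groups without overlap were seen for 5 of the 10 genes with ERSE or ERSE-II, all with treated arrays above. Among the 21 with neither, they were seen for 6, 5 with treated arrays above and 1 below. Over the 8722 detected genes the treated arrays lay above without overlap for 21.2% and below for 11.4%, and over all probe sets for 16.4% and 16.8%. These are counts over small sets with no test between them, and a window without a match says only that the letters are not in it.

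**Figure D4:**
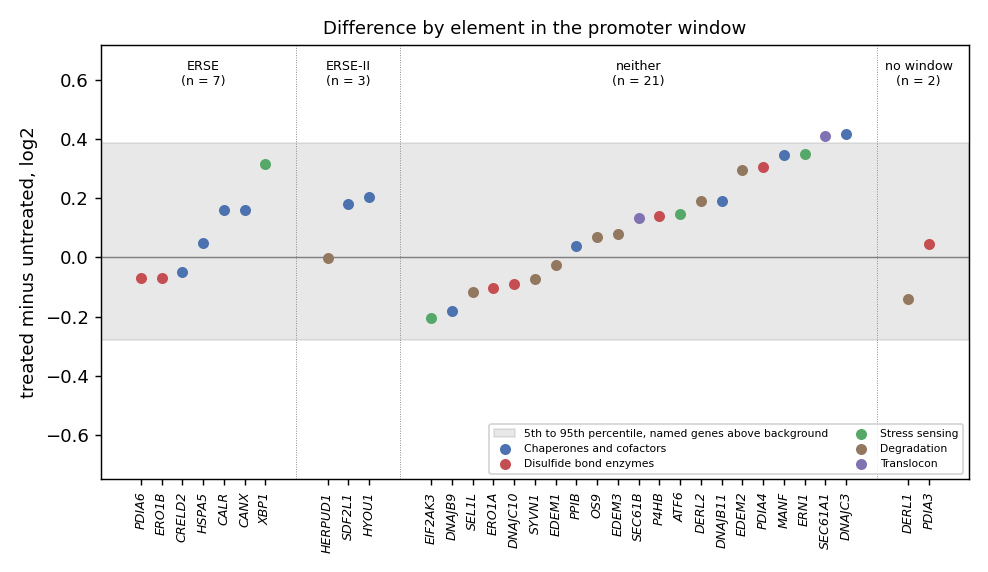
Each point is the treated minus untreated log2 difference of 1 of the 33 genes above background on at least 1 array, grouped by the element in its promoter window and coloured by role; the grey band is the 5th to 95th percentile over 8722 named genes, -0.28 to 0.39. The 10 genes with ERSE or ERSE-II all lie inside the band, and DNAJC3 and SEC61A1, which have neither, lie above it.

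The rest of the pathway was read from 100 further genes of folding, glycan trimming, translocation, disposal and signalling, of which 94 were measured and 85 had a mean above background. None passed limma's adjusted threshold. An unadjusted limma p under 0.05 was found for 3 of the 94, all in the folding list, and for 1 of the 85. The shares were 5.08% over all probe sets and 2.4% over the 8722 detected genes. Of the 94, 61 (64.9%) were higher in treated cells, with a median of 0.049. Of the 85 above background, 56 (65.9%) were higher, also with a median of 0.049, beside 58.8% and 0.040 over the detected genes. The treated arrays lay above without overlap for 28 of the 94 (29.8%) and below for 9 (9.57%). Among the 85 they lay above for 24 (28.2%) and below for 8 (9.41%), beside 21.2% and 11.4% of the detected genes. The folding list had 18 of 26 genes higher (median 0.091), glycan processing 9 of 13 (0.047), translocation 10 of 16 (0.018), disposal 15 of 23 (0.029) and signalling 9 of 16 (0.054). Genes below background are counted in these lists.

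SDF2, a paralog of SDF2L1, was the one of the 3 above background. It read 8.25 and 7.97 in untreated and 8.90 and 8.53 in treated cells, both treated arrays above both untreated ones. The difference of SDF2 was 0.61 ± 0.22 (SE; interval 0.09 to 1.13), 1.53-fold, with an unadjusted p of 0.0268 and a limma adjusted p of 0.948. The other two, MZB1 and QSOX2, were below background on every array, at 4.59, 5.23, 4.23 and 4.21 for MZB1 and 5.88, 5.87, 6.40 and 6.34 for QSOX2 (untreated replicates, then treated), and no difference is read from them. DDIT3, which encodes CHOP, the transcription factor through which lasting endoplasmic reticulum stress promotes death, was also below background, at 5.96 and 5.61 in untreated and 6.14 and 6.43 in treated cells; it was chosen for mention after its values were seen.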

How the data were processed

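The authors deposited 1 log2 value per probe set and array, made with RMA in the submitters' processing notes, which also list Transcriptome Analysis Console 4.0.1.36. Since RMA equalizes the arrays' distributions, a shift common to most genes cannot be seen. That values are log2 was inferred from their range. Of the probe sets, 2903 controls were left out and 21448 were tested; 17709 had 1 symbol in the platform annotation, and for a symbol with several the brightest was used. Arrays were grouped by their titles. The comparison used limma 3.58.1 (lmFit, eBayes; R 4.3.3) with a group term alone, two-sided p, Benjamini-Hochberg adjustment at 0.05 over all tested probe sets, and 2 residual and 4.90 prior degrees of freedom. The fit was tested on simulated data. Background is set by negative-control probe sets at their 95th percentile, per array (7.19 to 7.64) or, for a mean over the arrays, of the controls' means (6.96); a gene below it on all arrays is given no difference. The number of arrays limits the precision.

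The genes, roles and other lists were chosen with earlier results of these data known. Array values were given, by rule, for the sensing genes, HSPA5, HERPUD1, and in each role the highest and lowest difference and any gene with an unadjusted p under 0.05; those of HYOU1, MANF, CALR, CANX, ERO1B, SEL1L and DERL1 were added after they were seen; other pathway genes were named at an unadjusted p under 0.05. Alternatives were quantile, median and cyclic loess scaling, 2 filters on dim probe sets, trended and robust moderation, a replicate block, each array left out, the mean of a gene's probe sets and an unadjusted threshold. Promoter windows come from RefSeq, build GRCh38.p14; no build is named for the probe sets, and no coordinates are printed for them.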

Additional observations from a re-analysis of the deposited data

How the results depend on the processing

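None of the settings run, the mean of a gene's probe sets included, called any of the 34 genes (33 were tested under the filters on dim probe sets). An unadjusted limma p under 0.05 was found for 0 of them as reported, for SEC61A1 under both filters, for SEC61A1 and PDIA4 with trended moderation, and for ERN1 and DNAJC3 without untreated replicate 1. The adjusted limma p of these genes under those settings ran from 0.343 to 0.977. With the replicate number as a block, 0 passed, 21 were higher and the median stayed at 0.075. The replicate 1 minus replicate 2 differences of the groups had a correlation of -0.00085 over all probe sets and 0.022 over those above background. With 1 such difference per group, the correlation cannot tell whether samples of the same number shared a culture or a day. The block moved the count of probe sets with an unadjusted limma p under 0.05 from 1089 to 1079. Quantile normalization lowered the median of the 34 genes to 0.041, of degradation genes to -0.054 and of other pathway genes to 0.022; cyclic loess gave 0.044, -0.054 and 0.023, and quantile normalization turned PPIB to -0.011. With an array left out, 21 to 24 genes were higher. Groups did not overlap for 22 to 26 genes, since fewer arrays overlap less by construction. Shares over all probe sets were not counted with an array left out, so neither count is read as a result about the list. Medians then ran over 0.049 to 0.089 for all genes, 0.079 to 0.21 for chaperones, -0.042 to 0.096 for disulfide enzymes, -0.10 to 0.36 for sensing genes, -0.11 to 0.013 for degradation and 0.055 to 0.077 for other pathway genes. Of 33 differences, 15 kept their sign in every setting (13 higher, 2 lower) and 18 turned with an array left out, over these ranges: CRELD2 -0.15 to 0.049, ERO1B -0.47 to 0.33, HERPUD1 -0.076 to 0.070, EDEM1 -0.16 to 0.11, SEC61B -0.052 to 0.32, PDIA3 -0.0060 to 0.096, PDIA6 -0.17 to 0.029, ERN1 -0.21 to 0.91, SYVN1 -0.28 to 0.13, EDEM3 -0.12 to 0.28, DNAJB9 -0.41 to 0.042, SDF2L1 -0.069 to 0.43, PPIB -0.0069 to 0.087, P4HB -0.0096 to 0.29, ERO1A -0.28 to 0.079, DNAJC10 -0.19 to 0.0076, EIF2AK3 -0.42 to 0.0092 and DERL2 -0.13 to 0.51. Among those that kept their sign, leaving out an array moved these by over 1.5 times: HSPA5 0.014 to 0.083, DNAJB11 0.12 to 0.27, DNAJC3 0.016 to 0.82, CANX 0.079 to 0.24, PDIA4 0.20 to 0.41, ATF6 0.011 to 0.28, XBP1 0.18 to 0.46, SEL1L -0.20 to -0.038, EDEM2 0.087 to 0.50 and OS9 0.020 to 0.12. The causes were not tested. How many of the 8722 detected genes kept their sign was not counted, and 58.8% of them were higher in treated cells. The split of 13 higher and 2 lower is therefore not read as a result about the list. Apart from PPIB, the settings that kept all 4 arrays turned no difference.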
